A study of Mus musculus with 18 samples.

Results

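The genes described here are the Hox genes of clusters A to D, taken by symbol (Hoxa, Hoxb, Hoxc or Hoxd followed by a number) from the annotation of the arrays. A gene was counted where a probe set, the group of probes that reads a transcript, names it alone. That gave 37 Hox genes of 19937 genes on the arrays. Hoxb8 is read only by a probe set that also names Hoxb7, with a log2 signal of 5.33 to 5.92 on the 18 arrays. The arrays measured total RNA of mouse embryonic fibroblasts (MEFs) of strain 129sv/ev, 3 arrays in each of 6 groups. The line named NFAT5 wild-type 5.4 (WT) grew in isotonic or hypertonic medium, each without Torin1 or after 1 h with Torin1 at 100 nM, an inhibitor of the kinase mTOR. The knockout line 5.1 (KO), which lacks intact Nfat5, the gene of a transcription factor of the response to hypertonic stress, was measured in both media and never with Torin1. The array titles call the media 300 and 500 without naming a unit, and the labels used here give no time in hypertonic medium. Each genotype is a single line, so genotype and line cannot be told apart. The arrays of each group carry the numbers 1, 2 and 4, and the labels do not say whether these were separate cultures, so each p-value sets a difference against the spread of these arrays, which may be technical.

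Hox genes encode transcription factors that bind DNA through a homeodomain and give cells of the embryo their position along the body axis. In each cluster the genes lie in the order of their numbers, with low numbers active in the head and neck region and high numbers in the trunk, tail and distal limb. Fibroblasts keep part of this pattern in culture, so that the set of active Hox genes differs between fibroblasts of different body sites. Their proteins bind many sites together with cofactors of the PBX, MEIS and PKNOX families, and Polycomb proteins keep silent Hox genes closed while trithorax-type methyltransferases keep active ones open.

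Several features of the arrays touch every result below. Isotonic KO array 1 is KO by its title and wild-type by its genotype label. On this array Chn1 and Foxf1, described below, had signals of 6.20 and 9.22. The other KO arrays had 5.83 to 6.38 and 8.17 to 9.80, and the WT arrays 8.93 to 10.11 and 11.08 to 11.48. Results are given by title. With this array counted as WT no Hox gene was called between the lines in isotonic medium, and the isotonic calls given below for Foxf1, Dlx5, Tbx18, Chn1, Jazf1, Meis2 and Cbx7 were lost too (adjusted p from 0.133 to 0.503). Of 13 fibroblast markers, all passed the filter and 11 exceeded the array-wide 50th percentile on every array, but some differed in level between the lines. In isotonic medium 4 of 13 and in hypertonic medium 5 of 13 were called higher in KO and none lower. Of all genes, 14.6% and 31.9% were called there in either direction. Others were near equal, such as Vim with isotonic means of 13.95 in WT and 13.93 in KO. Large differences were seen for Thy1 and Dcn. Thy1, a surface protein of fibroblasts, had signals of 6.69 to 7.22 on WT arrays and 10.64 to 11.27 on KO arrays. The matrix gene Dcn had signals of 7.27 to 8.21 on WT arrays of numbers 1 and 2, 11.67 to 11.85 on WT arrays of number 4, and 12.52 to 13.74 on KO arrays, so that number 4 stood apart in WT. Macrophage, endothelial, epithelial, neural, muscle and pluripotency lists had mean signals of 5.19 to 7.25 on all arrays, but some of their members moved with the line. The endothelial receptor gene Tek had 5.71 to 6.21 on WT arrays and 6.64 to 9.09 on KO arrays, and the epithelial gene Cdh1 6.43 to 6.92 and 7.29 to 8.80, each the 1 marker of its list called higher in KO in both media. The macrophage gene Csf1r went the other way, with hypertonic means of 8.66 in WT and 7.30 in KO, the 1 macrophage marker called there. Members above the 50th percentile on every array were 2 macrophage, 1 epithelial, 1 neural and 1 muscle marker. The part of these cell types in the Hox results was not tested. In such bulk RNA, a smaller share of cells with a transcript and less of it per cell cannot be told apart. Nfat5 itself had differences between the lines (KO minus WT) of -0.26 ± 0.16 (isotonic, adjusted p = 0.367) and -0.44 ± 0.16 (hypertonic, adjusted p = 0.0503), and neither was called. The hypertonic difference was called in 10 of 27 alternatives, with the array number as a block at an adjusted p of 0.00591.

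The working name of these genes is a mark of line identity. Their level is described first, and how many differed between the lines follows below, beside the shares of all genes. Set against 7.06, the median of all values (the 50th percentile), 9 of 37 members lay above it on every array and 23 on none. Hoxb1 lay above it on 11 of 12 WT and 6 of 6 KO arrays, Hoxb9 on 2 WT and 2 KO arrays and Hoxd11 on 7 WT and 5 KO arrays. Hoxd8 did on 4 and Hoxd9 on 3 of 6 KO arrays and neither on a WT array. The 9 members above it on every array, chosen by that level in both lines, were Hoxa2, Hoxa3, Hoxa4, Hoxa5, Hoxa6, Hoxa7, Hoxb2, Hoxb3 and Hoxb4. Their means over 18 arrays ran from 8.60 to 10.22, and no array had any of them below 8.19. They form an unbroken run at the low-numbered end of cluster A among the genes read here, and a run of 3 in cluster B that follows Hoxb1. They are 24.3% of the Hox genes, beside 49.7% of all genes above that level on every array. Signals of different probe sets are not amounts of RNA, so this describes which probe sets were bright, and no order of transcript levels is drawn from it.

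The other 28 members had means of 5.18 to 7.23. Hoxa9 to Hoxa13, genes of the posterior trunk and distal limb, had means of 5.74 to 6.17. In cluster B, Hoxb5 to Hoxb13 had means of 5.87 to 6.95 and Hoxb1, a gene of the hindbrain, had a mean of 7.23. The 9 members of cluster C had means of 5.18 to 6.11 and the 9 of cluster D 5.76 to 7.12. A gene was tested only if its highest group mean exceeded 5.86, a filter set at the 30th percentile, and 27 of 37 members passed it. The 10 below it were Hoxa9, Hoxc4, Hoxc5, Hoxc6, Hoxc8, Hoxc10, Hoxc11, Hoxc13, Hoxd10 and Hoxd12, which therefore have no test here.

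**Figure D1:**
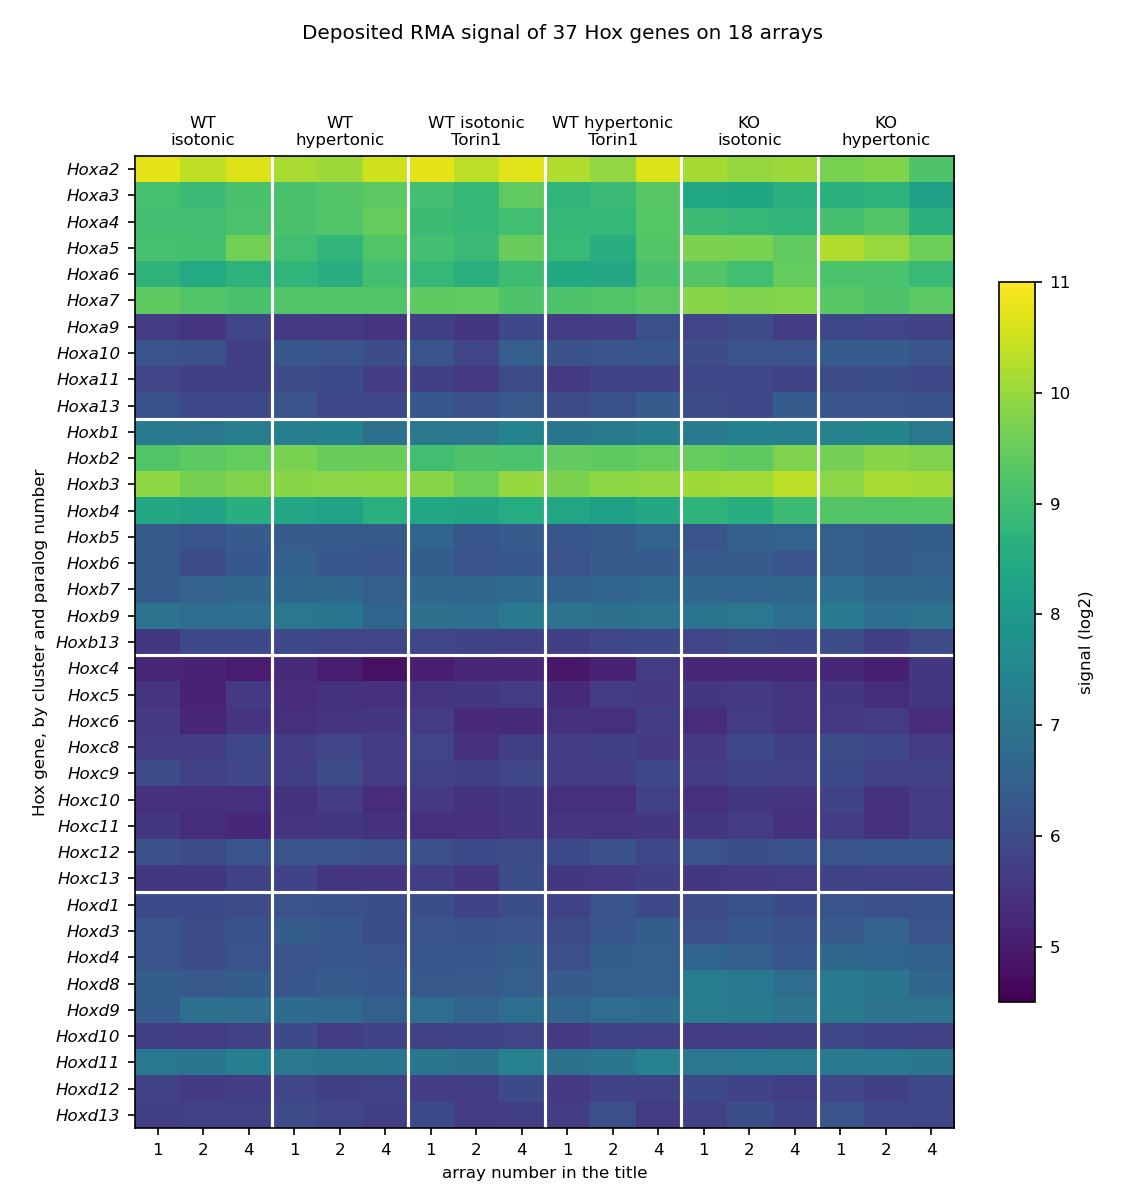
Log2 signal of each of the 37 Hox genes (rows, by cluster A to D and number) on each of the 18 arrays (columns, by group and array number). Colour gives the deposited signal from dark (low) to yellow (high), and the 9 bright rows, Hoxa2 to Hoxa7 and Hoxb2 to Hoxb4, stay bright in every column of both lines.

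The brightest member of each cluster illustrates the spread. Hoxa2, which patterns the second branchial arch, had signals of 9.94 to 10.73 on WT arrays (median 10.45) and 9.20 to 10.12 on KO arrays (median 9.88). Hoxb3, a hindbrain and neck gene, had 9.57 to 9.97 in WT (median 9.86) and 9.87 to 10.34 in KO (median 10.10). Hoxc12 lay between 5.92 and 6.27 and Hoxd11, which shapes the forearm, between 6.93 and 7.38, with the lines overlapping for both.

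Between the lines, 6 of 27 tested Hox genes were called in isotonic medium, at a limma p below 0.05 after Benjamini-Hochberg adjustment over all 15711 genes tested. Hoxa6, Hoxa7, Hoxb3, Hoxd8 and Hoxd9 were higher in KO cells and Hoxa3 was lower. This is 22.2% of the members tested, beside 14.6% of all genes, of which 7.78% were higher and 6.84% lower. In hypertonic medium 6 were called again, with Hoxa5, Hoxb4, Hoxd4 and Hoxd8 higher and Hoxa2 and Hoxa3 lower, which is 22.2% beside 31.9% of all genes (13.8% higher and 18% lower). No member reached a 2-fold difference with a call in either medium, where 5.49% and 7.73% of all genes did. The counts and their split into higher and lower depend on scaling. With each array centred on its median, 32 members passed the filter. Of these, 3 were higher and 2 lower in isotonic medium and 10 higher and 2 lower in hypertonic medium. The share of all genes called in that fit is not given here. Of all genes called with centred arrays, 48.2% (isotonic) and 70.2% (hypertonic) were higher, beside 53.2% and 43.4% without centring.

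Only Hoxa3 and Hoxd8 were called in both media, of 10 members called in either. That is 7.41% and 37% of the 27 members, close to the 9.81% and 36.7% of all genes. The sign of the difference was the same in both media for 25 of 27 members and for 68.6% of all genes tested. The media use different arrays, but the 2 signs are not independent. Same-numbered arrays of the 2 media deviated together from their group means, with r of 0.361 to 0.751 in WT without Torin1 and 0.494 to 0.719 in KO. Over the 27 members the median absolute difference was 0.12 log2 units (isotonic) and 0.15 (hypertonic), beside 0.16 and 0.24 over all genes. Of the 9 bright members 4 were called in each medium, beside 14.7% and 36.1% of the 9917 genes as bright on every array, and their median absolute differences were 0.38 and 0.28, beside 0.17 and 0.28. By size, Hoxd8 was rank 1663 of 15711 genes in isotonic medium and Hoxa5 rank 1577 in hypertonic medium, the first members in each ranking. The 95% interval of the difference lay within 2-fold, 1 unit on the log2 scale, for 26 of 27 members in isotonic medium, all but Hoxa6. In hypertonic medium it did for 23, all but Hoxa2, Hoxa3, Hoxa5 and Hoxb4, and reached furthest for Hoxa5, to 1.36.

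**Figure D2:**
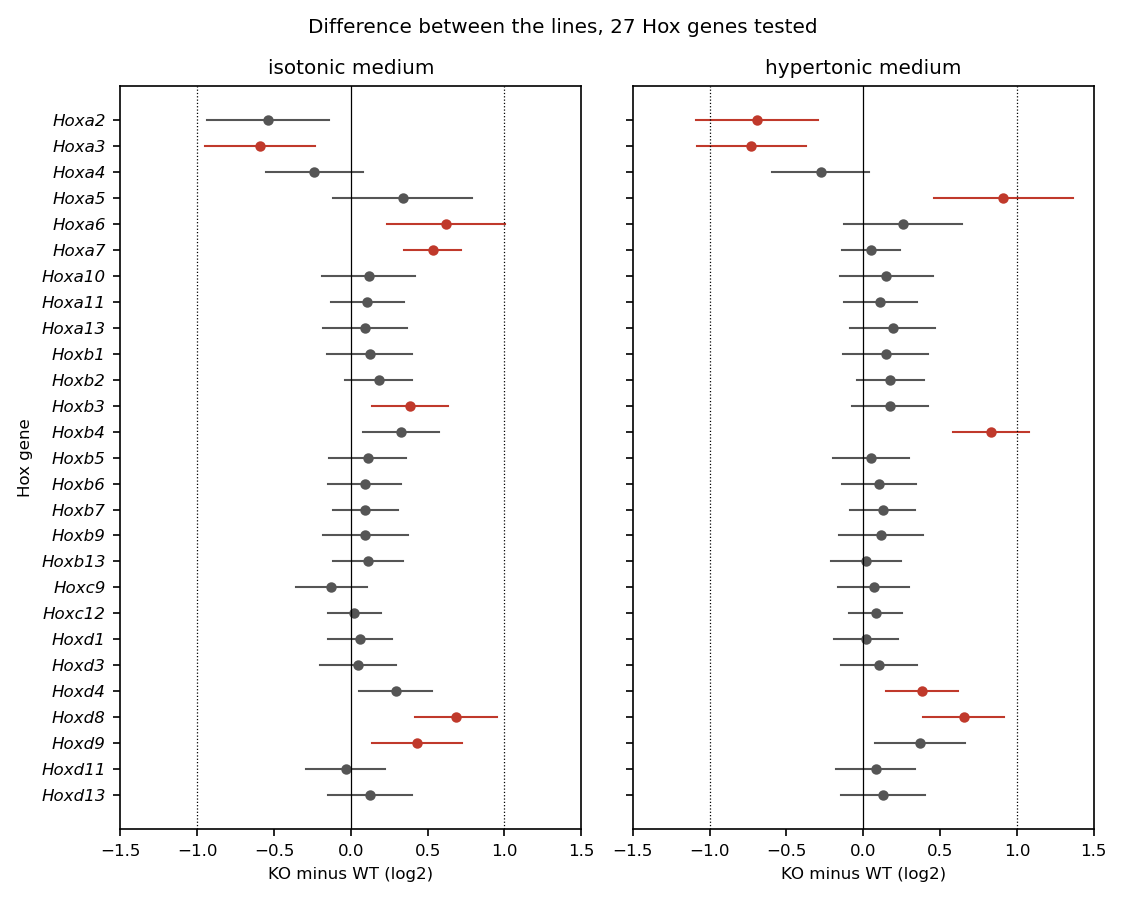
Difference between the lines (KO minus WT, log2) for the 27 tested Hox genes in isotonic (left) and hypertonic medium (right), with 95% intervals from the limma fit of 3 arrays per group and dotted lines at 2-fold. Red marks the 6 called genes of each medium, and no point lies beyond 2-fold.

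Taking all 6 KO arrays against all 12 WT arrays, Torin1 included, 3 of 37 members did not overlap: Hoxd8 and Hoxd9 lay above and Hoxa3 below. All 3 were among the 27 members tested. Over all genes tested 8.52% did not overlap, 4.11% with KO above and 4.41% with KO below. The empty gap between the lines was 0.19 for Hoxd8 and 0.07 for each of Hoxd9 and Hoxa3, and none reached 1, as 1.39% of all genes did. Without the arrays of number 4, 8 members did not overlap. Fewer arrays separate more easily for any gene. The share of all genes without overlap in that smaller set was not counted, and the 8.52% is not its background.

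Within cluster A the sign changed along the chromosome. In both media Hoxa2, Hoxa3 and Hoxa4 had lower mean signals in KO cells and Hoxa5, Hoxa6 and Hoxa7 higher ones, although not all of these differences were called. Hoxa3, needed for thymus and parathyroid, had isotonic signals of 9.10, 8.93 and 9.13 in WT and 8.40, 8.36 and 8.62 in KO. In hypertonic medium it had 9.14, 9.25 and 9.37 in WT and 8.66, 8.71 and 8.20 in KO. Every KO array was below every WT array. The differences were -0.59 ± 0.17 (isotonic, adjusted p = 0.0256) and -0.73 ± 0.17 (hypertonic, adjusted p = 0.00351). The isotonic call was lost without WT isotonic array 1 (adjusted p = 0.0774) or 4 (0.0762) or KO isotonic array 1 (0.0840) or 2 (0.0960).

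Hoxa2 had hypertonic signals of 10.17, 10.06 and 10.53 in WT and 9.69, 9.78 and 9.20 in KO. All KO arrays were lower, with KO array 4 lowest. The difference was -0.69 ± 0.19 (adjusted p = 0.00979). Without KO hypertonic array 4 it was -0.52 and not called (adjusted p = 0.0501), and without all arrays of number 4 it was -0.38 (adjusted p = 0.0640). The isotonic difference of -0.54 ± 0.19 was not called (adjusted p = 0.0687), although those arrays did not overlap, and it was called with the array number as a block (adjusted p = 0.0373) and without the arrays of number 4 (-0.50, adjusted p = 0.0279).

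Hoxa5, which acts in the neck skeleton and the lung, had hypertonic signals of 9.04, 8.78 and 9.25 in WT and 10.24, 9.99 and 9.57 in KO. The groups did not overlap, and KO array 4 was the nearest to WT. The difference was 0.91 ± 0.21 (adjusted p = 0.00389). It passed 2-fold with centred arrays (1.06) and without the arrays of number 4 (1.21). Its isotonic signals of 9.10, 9.09 and 9.62 in WT and 9.72, 9.68 and 9.42 in KO overlapped, and the isotonic difference of 0.34 ± 0.21 was not called (adjusted p = 0.360), except without the arrays of number 4 (0.61, adjusted p = 0.00307).

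Hoxa6 and Hoxa7 act in the thoracic skeleton. Hoxa6 had isotonic signals of 8.73, 8.47 and 8.71 in WT and 9.26, 9.04 and 9.47 in KO, with no overlap. Its difference was 0.62 ± 0.18 (adjusted p = 0.0298), and the call was lost without WT isotonic array 1 (adjusted p = 0.0519), 2 (0.119) or 4 (0.0501) or KO isotonic array 1 (0.0784) or 4 (0.118). Hoxa7 had isotonic signals of 9.39, 9.23 and 9.14 in WT and 9.84, 9.75 and 9.78 in KO. The lowest KO array was above the highest WT array, and the difference was 0.53 ± 0.09 (adjusted p = 0.000463), called with any single array left out.

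In cluster B, 8 of 9 tested members had no call in each medium. Hoxb4, known for its role in blood stem cells, had hypertonic signals of 8.38, 8.27 and 8.62 in WT and 9.27, 9.23 and 9.27 in KO. The 3 KO arrays were close together and all above WT, and the difference was 0.83 ± 0.12 (adjusted p = 6.71e-05). Its isotonic signals of 8.42, 8.29 and 8.59 in WT and 8.73, 8.58 and 8.95 in KO overlapped, and the difference of 0.32 ± 0.12 was not called (adjusted p = 0.0777). It was called with the array number as a block (adjusted p = 0.00845), without WT isotonic array 4 (0.40, adjusted p = 0.0486) and without KO isotonic array 2 (0.41, adjusted p = 0.0475). Hoxb3 had isotonic signals of 9.91, 9.67 and 9.76 in WT and 10.06, 10.09 and 10.34 in KO, a difference of 0.38 ± 0.12 (adjusted p = 0.0374). That call was lost without WT isotonic array 2 (adjusted p = 0.142) or 4 (0.0879), WT hypertonic array 2 (0.0501), KO isotonic array 2 (0.0605) or 4 (0.155), and all arrays of number 4 (0.147), and with centred arrays (0.0607), quantile normalization (0.0511) and a fit on the contrasted groups alone (0.0825).

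Cluster D held the member with the widest gap between the lines, at a low signal. Hoxd8 had isotonic signals of 6.42, 6.32 and 6.43 in WT and 7.25, 7.14 and 6.83 in KO. On all WT arrays it lay between 6.25 and 6.46, and on KO arrays between 6.66 and 7.25. The isotonic difference was 0.68 ± 0.12 (adjusted p = 0.00116) and the hypertonic one 0.65 ± 0.12 (adjusted p = 0.000901), and both stayed called with any single array left out. Hoxd9, its neighbour, lay between 6.39 and 6.89 on WT arrays and between 6.97 and 7.26 on KO arrays. Its isotonic difference of 0.43 ± 0.14 had an adjusted p of 0.0458, and in 12 of the 18 fits that leave out 1 array it was not called, with adjusted p of 0.0502 to 0.211. Those arrays were WT isotonic 1, WT isotonic Torin1 1 and 4, WT hypertonic 2, WT hypertonic Torin1 1, 2 and 4, KO isotonic 1 and 2, and KO hypertonic 1, 2 and 4. The call was lost as well with no filter (0.0521), centred arrays (0.0502), quantile normalization (0.0545) and a fit on the contrasted groups alone (0.136). Hoxd4, a gene of the neck vertebrae, was higher in hypertonic KO cells by 0.38 ± 0.11 (adjusted p = 0.0148), from 6.17 to 6.26 in WT to 6.52 to 6.67 in KO, and not called without KO hypertonic array 1 (adjusted p = 0.0593). In cluster C only Hoxc9 and Hoxc12 were tested, with differences from -0.13 to 0.08 and no call.

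**Figure D3:**
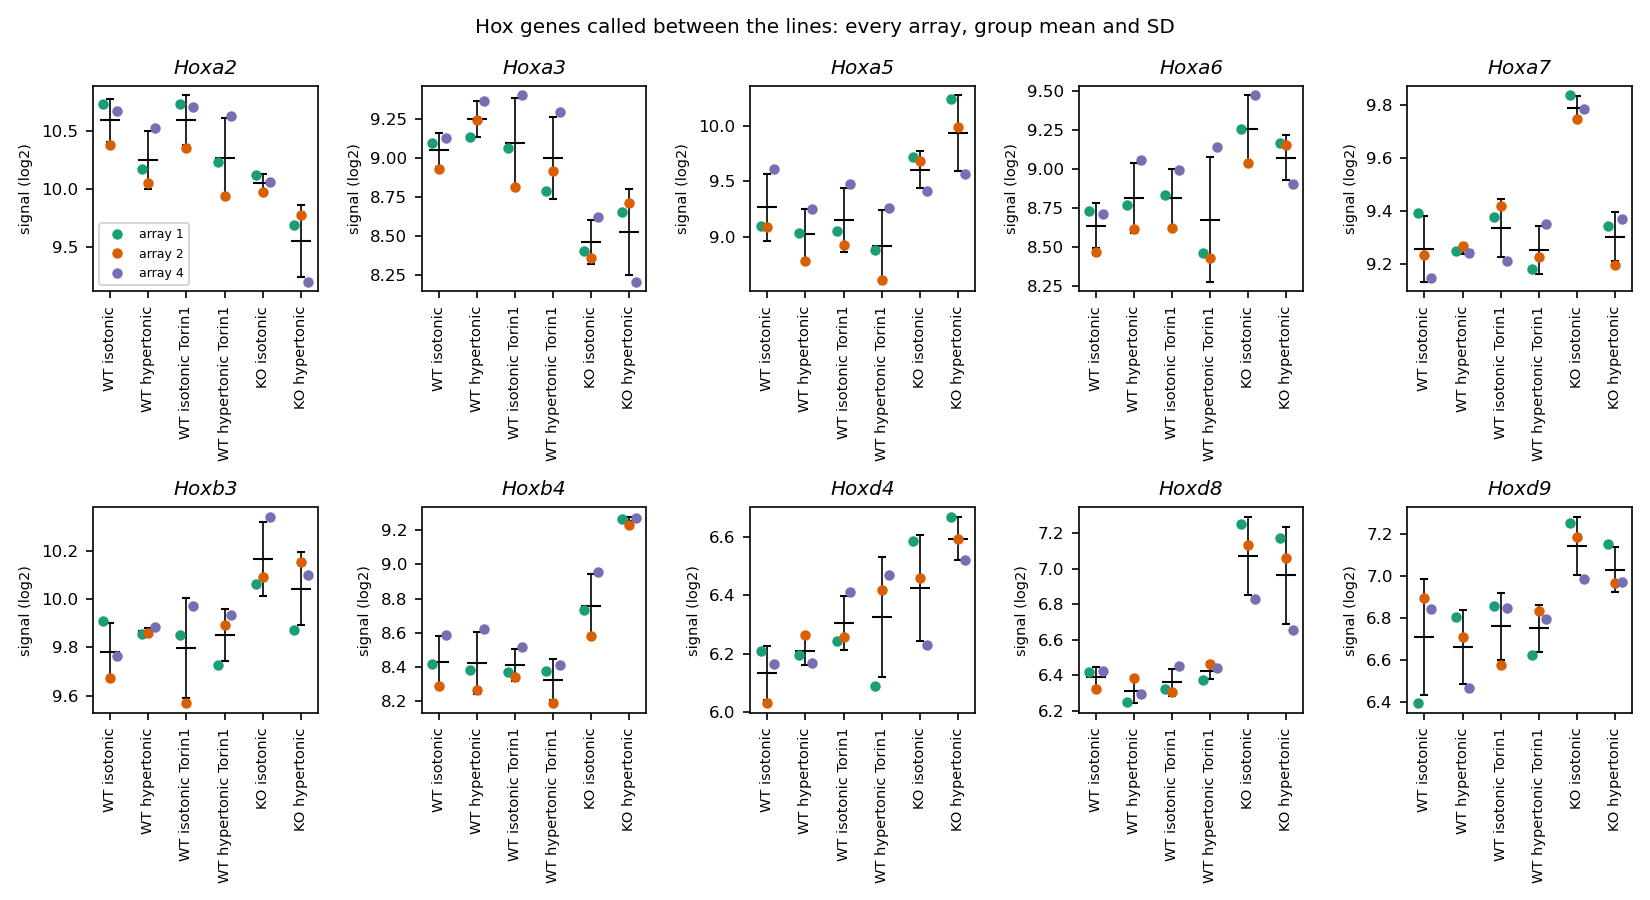
Log2 signal on every array for the 10 Hox genes called between the lines in either medium, in the 6 groups, with horizontal bars for group means and vertical bars for the SD of 3 arrays. Each vertical axis covers only the range of its gene, and Hoxd8 and Hoxd9 are higher and Hoxa3 lower on all 6 KO arrays than on the 12 WT arrays.

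The medium left most Hox signals within their spread. In WT cells 0 of 27 were called between hypertonic and isotonic medium (8.24% of all genes were), with 0 at an unadjusted limma p below 0.05. In WT cells with Torin1 it was 0 of 27 (3.37% of all genes), with 1 at an unadjusted p below 0.05. In KO cells 2 of 27 were called, 7.41% beside 30.1% of all genes. Every 95% interval of these effects lay within 2-fold for the 27 members, with the widest for Hoxa2 in each case, reaching 0.74 in WT cells, 0.72 in those given Torin1 and 0.89 in KO cells.

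The 2 members that changed in KO cells moved in opposite directions. Hoxa7 fell from 9.84, 9.75 and 9.78 in isotonic to 9.34, 9.20 and 9.37 in hypertonic medium, a change of -0.49 ± 0.09 (adjusted p = 0.000589). In WT its hypertonic signals of 9.25, 9.27 and 9.24 lay among the isotonic ones. Hoxb4 rose in KO cells from 8.73, 8.58 and 8.95 to 9.27, 9.23 and 9.27, a change of 0.50 ± 0.12 (adjusted p = 0.00391). Both calls held under each alternative run, and with the array number as a block Hoxa2 was called too (-0.50, adjusted p = 0.0347). Other counts were 9 of 32 members tested, 8 higher and 1 lower, with centred arrays, and 5 of 30 without the arrays of number 4. The shares of all genes called in those fits are not given here. Of all genes called for the medium in KO cells, 69.3% were higher with centred arrays, beside 42.9% without centring.

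The difference between the lines in the effect of the medium was called for 1 of 27 members, beside 9.5% of all genes, and 2 had an unadjusted p below 0.05. It was Hoxa7, at -0.48 ± 0.12 (adjusted p = 0.0232). The call was lost without WT isotonic array 2 (adjusted p = 0.0536) or 4 (0.0592), WT hypertonic array 2 (0.0598), KO isotonic array 1 (0.0581) or KO hypertonic array 2 (0.0688), and with centred arrays (0.112) or quantile normalization (0.0505). With the array number as a block, Hoxb4 was called too (0.51, adjusted p = 0.00846), and without the arrays of number 4 the count was 3 of 30 members tested. Without WT hypertonic array 4 it was 2 of 27, and without KO isotonic array 4 it was 2 of 29.

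Torin1 called 0 of 27 Hox genes by limma in isotonic medium (0% of all genes, and 1 member at an unadjusted p below 0.05) and 0 of 27 in hypertonic medium (0.115% of all genes, and 0 members unadjusted). Its effect on the response to the medium was called for 0 of 27 (0% of all genes, 0 unadjusted). The widest 95% interval of a Torin1 effect reached 0.57, for Hoxa5 in isotonic, and 0.61, for Hoxa4 in hypertonic medium. These contrasts share arrays with those on the medium in WT.

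Sequence just upstream of the start was read for the members the results turn on, from RefSeq promoter windows of GRCm38.p6, which held 21 of the 37 Hox genes in 23 windows and 9 of the 10 genes called between the lines. Each window is the 250 bases before the start, 5′ to 3′ on the strand of the gene. Capitals mark matches on either strand to TGATNNAT, a site type bound by PBX and HOX proteins together, or to TGGAAA, the core of the site that NFAT5 binds. TAATTA, the core bound by many homeodomains, was searched too. Hoxa2 (chr6:52164832-52165081, minus strand) is shown as the brightest member, Hoxa7 (chr6:52218574-52218823, minus strand) and Hoxb4 (chr11:96318017-96318266, plus strand) as the members that changed with the medium in KO cells, and Hoxd8 (chr2:74704365-74704614, plus strand) as the member that best separated the lines.
Hoxa2: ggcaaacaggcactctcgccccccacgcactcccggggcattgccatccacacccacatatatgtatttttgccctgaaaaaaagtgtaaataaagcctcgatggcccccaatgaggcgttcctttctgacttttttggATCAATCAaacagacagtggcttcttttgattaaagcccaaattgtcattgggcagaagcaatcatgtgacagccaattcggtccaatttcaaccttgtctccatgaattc
Hoxa7: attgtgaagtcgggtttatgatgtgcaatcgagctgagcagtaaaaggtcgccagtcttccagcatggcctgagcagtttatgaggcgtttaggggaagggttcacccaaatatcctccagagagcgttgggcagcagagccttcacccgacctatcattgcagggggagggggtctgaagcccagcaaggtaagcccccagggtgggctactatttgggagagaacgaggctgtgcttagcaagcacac
Hoxb4: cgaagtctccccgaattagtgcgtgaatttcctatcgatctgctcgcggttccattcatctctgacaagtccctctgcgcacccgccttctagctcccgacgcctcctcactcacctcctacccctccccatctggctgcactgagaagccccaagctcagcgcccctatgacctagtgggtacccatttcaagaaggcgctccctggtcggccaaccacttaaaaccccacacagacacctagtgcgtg
Hoxd8: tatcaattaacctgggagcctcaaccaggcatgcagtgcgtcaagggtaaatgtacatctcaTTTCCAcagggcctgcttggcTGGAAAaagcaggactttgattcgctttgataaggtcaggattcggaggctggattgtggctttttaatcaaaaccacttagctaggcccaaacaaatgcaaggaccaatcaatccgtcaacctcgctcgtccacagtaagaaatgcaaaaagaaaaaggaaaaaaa

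The TGATNNAT match in Hoxa2 begins at position -111, counted from the start, and lies on the opposite strand. Hoxd8 has TGGAAA in both orientations, beginning at -188 and -167, and the windows of Hoxa7 and Hoxb4 have none of these letters. Of the 23 Hox windows 3 held TGATNNAT, 6 held TGGAAA and 2 held TAATTA, where 7.68%, 18.6% and 4.84% of all 32851 windows did. These motifs do not overlap in letters, and a match describes a sequence and not a bound site. The Hox windows had 2 to 35 CG pairs with a median of 13, beside a median of 6 over all windows.

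Among the cofactors of Hox proteins, 8 of 9 listed genes were measured and all passed the filter. In hypertonic medium 4 of 8 were called between the lines, where 31.9% of all genes were. Meis2 (-1.11 ± 0.16, adjusted p = 0.000101), Meis1 (-0.85 ± 0.15, adjusted p = 0.000591) and Meis3 (-0.39 ± 0.11, adjusted p = 0.0153) were lower in KO, and Pknox2 was higher (0.44 ± 0.13, adjusted p = 0.0181). With centred arrays 2 were higher and 2 lower. Meis1 had hypertonic signals of 9.09, 9.39 and 9.41 in WT and 8.30, 8.44 and 8.61 in KO, with no overlap. In isotonic medium Pbx4 (-0.32 ± 0.10, adjusted p = 0.0482) and Meis2 (-0.50 ± 0.16, adjusted p = 0.0496) were called, 2 of 8 where 14.6% of all genes were. That count of 2 fell to 0 or 1, as called genes of either direction, without any single array other than WT isotonic array 4.

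Of 27 genes that regulate Hox clusters 26 were measured and 25 tested. In isotonic medium 2 of the 25 were called, where 14.6% of all genes were. Both were lower in KO: Cbx7, a Polycomb reader of methylated histone H3 (-0.93 ± 0.23, adjusted p = 0.0123), and Phc2, another Polycomb subunit (-0.42 ± 0.13, adjusted p = 0.0360). The isotonic count was 0 without WT isotonic array 1 or KO isotonic array 1 or 2, and 1 without WT isotonic array 2 or KO isotonic array 4. It was 4 with the array number as a block and 7 without the arrays of number 4. Shares of all genes in those fits are not given here. In hypertonic medium 6 were higher and 3 lower of the 25, near the 31.9% of all genes called there. Higher ones included the trithorax-type methyltransferase gene Kmt2d (0.68 ± 0.11, adjusted p = 0.000238) and the retinoic acid receptor gene Rarg (0.76 ± 0.13, adjusted p = 0.000343). Lower ones were Cbx7 (-1.06 ± 0.23, adjusted p = 0.00268), the retinoic acid receptor gene Rarb (-0.80 ± 0.20, adjusted p = 0.00662) and the Polycomb gene Ring1 (-0.48 ± 0.09, adjusted p = 0.000912). With centred arrays 10 were higher and 3 lower, where 70.2% of all genes called were higher.

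Other transcription factors that mark body position included larger differences between the lines than any tested Hox gene had. Of 39 listed, 35 were measured and 31 tested, and 4 were higher and 4 lower in isotonic KO cells, where 14.6% of all genes were called. Foxf1, a gene of the mesoderm around the gut, had isotonic signals of 11.13, 11.29 and 11.47 in WT and 9.22, 9.54 and 9.80 in KO. Its isotonic difference was -1.77 ± 0.18 (adjusted p = 3.48e-06) and its hypertonic one -2.59 ± 0.18 (adjusted p = 5.49e-08). Dlx5, a jaw and bone gene, was higher in isotonic KO cells by 1.34 ± 0.15 (adjusted p = 9.49e-06), and Tbx18, a gene of the mesenchyme of heart and ureter, was lower (-1.21 ± 0.20, adjusted p = 0.000562). The isotonic count of 8 fell to 5 without WT isotonic array 1 or 2, WT isotonic Torin1 array 1, WT hypertonic array 1 or KO isotonic array 1 or 2, and rose to 15 without the arrays of number 4. With centred arrays, 2 were higher and 4 lower. In hypertonic medium 5 were higher and 3 lower, a smaller share than the 31.9% of all genes. With centred arrays 15 were higher and 3 lower there, where 70.2% of all genes called were higher. The hypertonic count of 8 fell to 5 without KO hypertonic array 1. With isotonic KO array 1 counted as WT the counts were 0 (isotonic) and 3 (hypertonic).

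The genes next to the clusters were read for comparison, 10 tested genes on each side of each cluster. Of these 80 genes 17 were called between the lines in isotonic medium, 21.2% beside 14.6% of all genes, and 4 of them at 2-fold or more, 5% beside 5.49%. In hypertonic medium 21 were called, 26.2% beside 31.9% of all genes. Chn1, the gene of a GTPase-activating protein and the fifth tested gene beyond the high-numbered end of cluster D, had isotonic signals of 10.03, 9.93 and 9.30 in WT and 6.20, 6.38 and 6.14 in KO. Its isotonic difference was -3.52 ± 0.32 (adjusted p = 1.21e-06) and its hypertonic one -3.72 ± 0.32 (adjusted p = 6.38e-07). Jazf1, a zinc finger gene and the fourth tested gene beyond the high-numbered end of cluster A, had differences of -2.54 ± 0.21 (isotonic, adjusted p = 5.01e-07) and -1.25 ± 0.21 (hypertonic, adjusted p = 0.000394). Osbpl6, on the other side of cluster D, had -1.15 ± 0.12 and -1.51 ± 0.12 (adjusted p = 5.73e-06 and 2.85e-07). Scrn3, on the same side of cluster D as Chn1, was higher in isotonic KO cells (1.32 ± 0.17, limma adjusted p = 4.06e-05). In hypertonic medium Scrn3 was not called (-0.29 ± 0.17, limma adjusted p = 0.207). With isotonic KO array 1 counted as WT the isotonic calls of Chn1 (adjusted p = 0.141) and Jazf1 (0.174) and the hypertonic call of Jazf1 (0.101) were lost. None of the Hox genes between these neighbours reached 2-fold with a call.

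**Figure D4:**
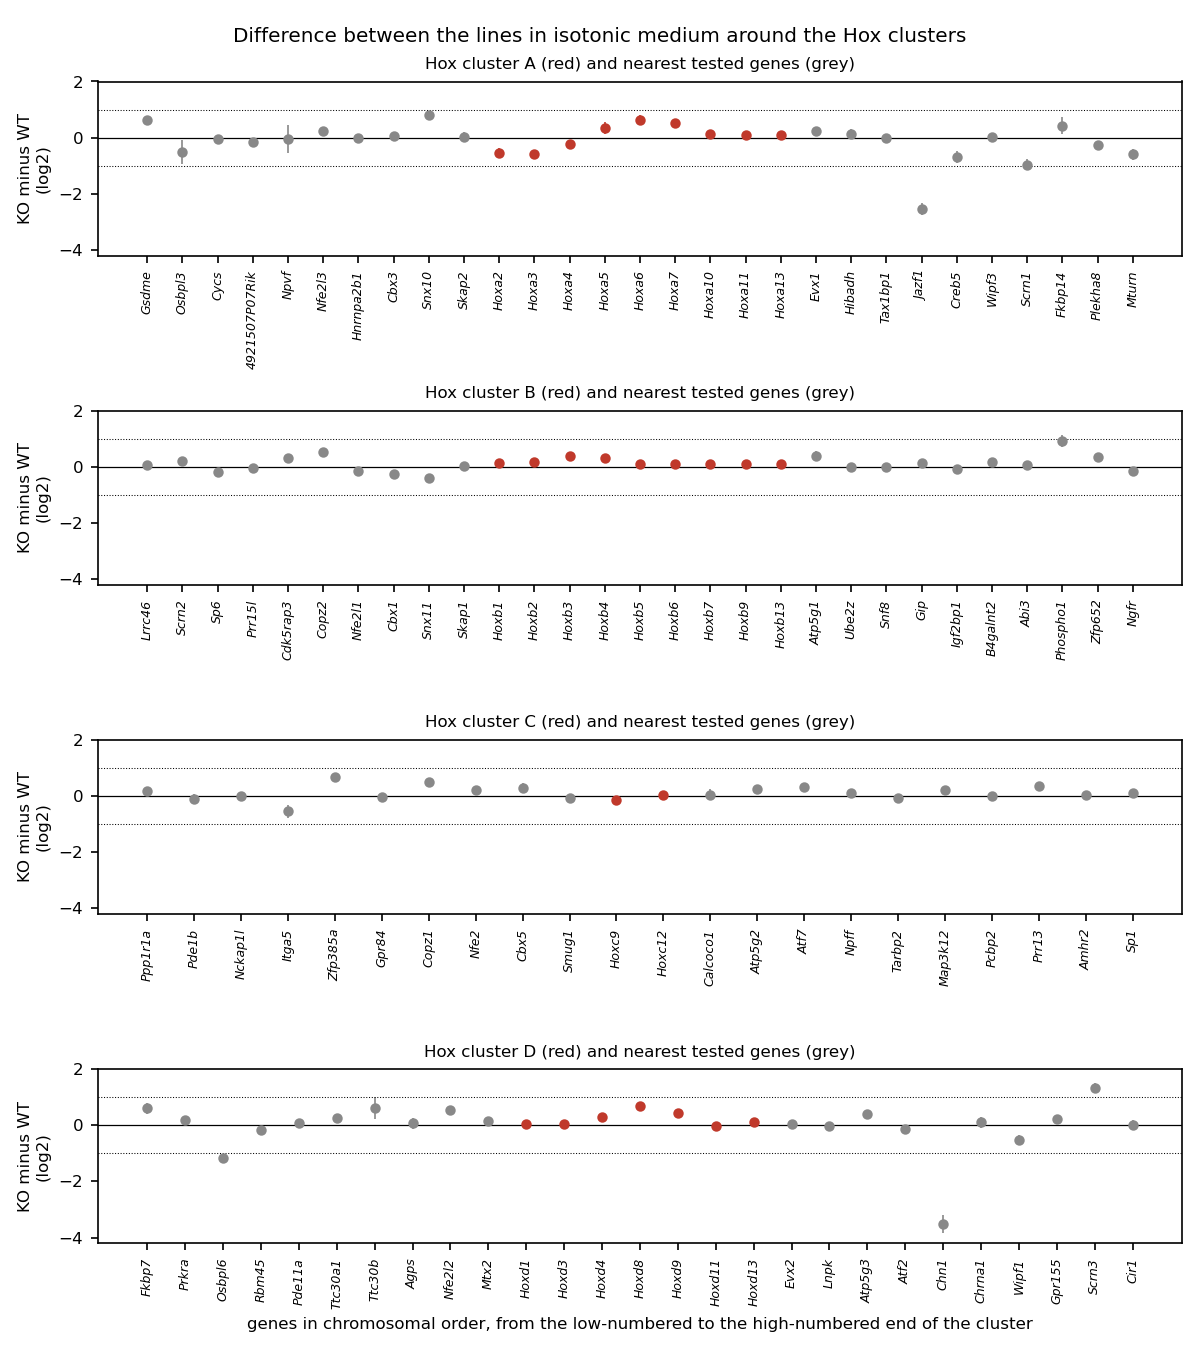
Difference between the lines in isotonic medium (KO minus WT, log2, with SE from the limma fit) for tested Hox genes (red) and the 10 nearest tested genes on each side (grey), in chromosomal order with equal spacing. Hox points stay between the dotted 2-fold lines, while Chn1 at -3.52 and Jazf1 at -2.54 lie far below them.

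Of 20 listed noncoding genes within the clusters 10 were measured and 4 passed the filter, and none of the 4 was called between the lines by limma in either medium. Hoxaas2, an antisense RNA of cluster A, was lower in hypertonic medium in all 3 comparisons of the media. Its signals were 10.01, 9.59 and 9.72 in isotonic and 8.79, 9.04 and 9.22 in hypertonic WT cells. Isotonic KO cells had 10.25, 10.03 and 9.61, and hypertonic KO cells 8.99, 8.98 and 8.40. The hypertonic arrays were lower in both lines without overlap. The change was -0.76 ± 0.18 in WT cells (adjusted p = 0.0195), -0.96 ± 0.18 in WT cells given Torin1 (adjusted p = 0.0109) and -1.17 ± 0.18 in KO cells (adjusted p = 0.000199). The WT call was lost without WT isotonic array 1 (adjusted p = 0.0857) or WT hypertonic array 1 (0.105) or 2 (0.0607) and in a fit on the contrasted groups alone (0.0681), and the call with Torin1 without WT hypertonic Torin1 array 2 (0.0624). A difference between Hoxaas2 and the coding members was not tested.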

How the data were processed

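Total RNA of MEFs was read on 18 Affymetrix mouse gene arrays. The authors summarised them with RMA in R 2.11.1 to log2 signals, per the submitters' processing notes, and the deposited signals were used unchanged. A genome build was not given in the sources used here. RefSeq tables of GRCm38.p6 gave current names, gene order and promoter windows. Of 34760 probe sets 21640 name a single gene, and a gene was taken as its brightest probe set by mean. Genes with a highest group mean above 5.86, the 30th percentile, were tested.

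limma 3.58.1 in R 4.3.3 fitted the 6 group means together (12 residual and 3.29 prior degrees of freedom). The 9 contrasts were tested with its moderated statistic, and p-values were adjusted by Benjamini-Hochberg within each. Errors are standard errors with 3 arrays per group, and the number of arrays limits the precision. On simulated data of 15711 genes for KO against WT in isotonic medium the fit recovered 35 of 100 changes of 0.5 and 92 of 100 of 1 log2 unit, with 6 false among 133 calls. In the simulation only these genes changed and the noise of the arrays was independent. In the real contrast 2298 genes were called and same-numbered arrays deviated together, so the recovery there can differ.

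As a check of pairing, deviations from the group means correlated across genes between same-numbered arrays, with r of 0.156 to 0.847 in 21 of 21 pairs (fits without a block are reported, block values beside calls they change). The correlation comes from the data, since the labels do not explain the numbers. Alternatives were other filters, centring, quantile normalization, the mean of probe sets, fits on the contrasted groups, the block, the genotype label of isotonic KO array 1 in place of its title, leaving out each array, and, added after seeing the data, no arrays of number 4. The Hox genes and all lists were chosen with earlier results of these data known. Named genes follow a rule: members called at 2-fold without overlap, of which there were none, so all called members are given; the brightest member of each cluster; members called for the medium or Torin1; and up to 6 called genes of other lists, of which the text gives some. Neighbours and hypertonic examples of the lists were named after their values were seen.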

Additional observations from a re-analysis of the deposited data

Results flagged for a closer look

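The effect of hypertonic medium on Hoxa7 differed between the lines by -0.48 log2 units (KO minus WT). It stands here because the test of the difference itself passed the threshold. The change was -0.50, -0.55 and -0.41 for KO arrays 1, 2 and 4 and -0.14, 0.03 and 0.10 for WT arrays of the same numbers.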

How the results depend on the processing

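Over 27 alternatives, 6 of 15 called Hox results kept their call in all. A call was lost in 51 pairs of a result and an alternative, several of them from the same fit, and in none did a direction change. Counting isotonic KO array 1 as WT left 0 of 26 members called between the lines in isotonic medium, 0 for the difference in the effect of the medium and 0 without overlap. Centring each array on its median gave 12 of 32 members tested between the lines in hypertonic medium and 9 of 32 for the medium in KO. It moved the median over all genes from 0.04 to 0.19 and from 0.02 to 0.18. Without the arrays of number 4, the medium in KO gave 5 of 30 members tested, the difference of its effect 3 of 30 and the lines without overlap 8. With the replicate block that difference gave 2, and the block changed no other Hox call than those given beside the results. Leaving out each array in turn gave 3 to 6 members between the lines in isotonic medium (3 without WT isotonic array 1 or KO isotonic array 1), 5 to 7 in hypertonic medium, 2 to 3 for the medium in KO, 0 to 2 for the difference of its effect, 3 to 4 without overlap and 9 to 10 above the 50th percentile. The cause of these shifts was not tested. Shares of all genes called or without overlap are given only for the reported fit, and none stands beside these counts. In 4 of 252 pairs of a contrast and a setting, the reported fit included, a member was called at 2-fold or more.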

Other observations

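The Y-linked genes Eif2s3y, Kdm5d and Uty were above the 50th percentile on all 18 arrays, and Xist lay between 5.05 and 5.82, on arrays of both lines.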
